A study of Sorghum bicolor with 96 samples.

Results

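The heat response of leaves of Macia, a sorghum line (Sorghum bicolor, a cereal crop of hot and dry regions), was measured early in the day, at zeitgeber time 1 (ZT1, hours after the start of the light period). It rests on 6 of the 96 libraries of the series, chosen by the titles of the columns in the table of raw counts: 3 from plants held at 42 °C for 1 h and 3 from control plants. All plants had been raised at 30 °C in the light and 20 °C in the dark, and the labels name no transgene or mutation in either group. The series asks how genotype and time of day bear on the response to cold or heat, with the times ZT1, ZT6, ZT9 and ZT15. The submitters call Macia tolerant, and RTX430, the line beside it in the heat experiment, sensitive. The labels speak of 3 biological replicates a group and do not say whether a library came from 1 plant or from several.

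Heat that unfolds proteins sets off a transcriptional program shared by plants, animals and fungi. Heat shock factors, which chaperones hold inactive at normal temperature, bind heat shock elements in promoters and switch on genes for small heat shock proteins, the larger ATP-driven chaperones and disaggregases, while much housekeeping transcription and translation slows. In plants the strength of this program also depends on the circadian clock and on light, and the first hours of the morning are a time of rapid change in transcript levels in leaves. The deposited table names genes by identifier only, and none of the identifiers could be matched to a name or product here, so which of the genes described below encode these proteins is not stated, and the leaf label was not checked against marker genes.

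The library totals were 4934033, 3983892 and 6803641 counts in the controls and 1868493, 6481278 and 3904333 counts after heat. Between 17496 and 21359 genes had at least 1 count, fewest in stress replicate 1, the smallest library. Over the 18648 genes that passed a filter on low counts, log2 levels correlated with r of 0.924 to 0.950 among the controls and 0.952 to 0.956 among the stress libraries, and with r of 0.739 to 0.790 between a control and a stress library. These values describe genes of shared libraries and carry no test. The genotype label was checked with 111 genes that were above 3 CPM in the other 18 Macia libraries and under 0.05 CPM in the 24 RTX430 libraries of the heat experiment (medians), and 80 genes of the opposite kind. CPM are counts scaled to a library of 1000000, with library sizes scaled by edgeR's TMM factors everywhere but in this check. Of the counts in both sets, 99.55 to 99.86% fell in the Macia genes in the 6 libraries.

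Replicate 3 stood apart in a small set of genes before any comparison with heat. In it, 37 of the 5237 genes that reached 50 CPM in some library were at least 4-fold lower than in both other replicates, in controls and in stress alike, while replicate 1 had 1 such gene and replicate 2 had 0. The 37 genes held 1.80, 2.29 and 0.132% of the counts in control replicates 1 to 3, and 5.90, 2.98 and 0.109% in the stress replicates. Replicate 3 was also the lowest in all 14 other groups of the heat experiment, with 0.0418 to 0.217% of its counts in these genes against 1.08 to 12.2% in replicates 1 and 2. The labels do not say what the number 3 shared. Of the 37 genes, 1 was called raised by heat and 0 lowered, beside 19.1% and 18.2% of all genes tested. They were chosen for a wide spread between replicates, which makes a call less likely, so this count does not show how they responded. Fits without replicate 3 are given below, but they also hold fewer libraries. No fit left out the 37 genes alone, so their part in the other results was not measured.

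Heat at 42 °C for 1 h changed the levels of a large part of the leaf transcripts. edgeR's quasi-likelihood test, at a threshold of 0.05 on the Benjamini-Hochberg adjusted p, called 6941 of the 18648 genes (37.2%), of which 3555 rose (19.1%) and 3386 fell (18.2%). With TMM the median log2 fold change was 2.13 among raised genes and -1.68 among lowered genes, against -0.19 over all genes. A rise of at least 4-fold was fitted for 1915 genes (10.3% of those tested), and of at least 16-fold for 682 (3.66%), while 1306 fell at least 4-fold and 294 at least 16-fold.

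Some of these folds are against a group in which a gene was nearly absent. With every gene that was at or under 3 counts in all libraries of a group set to its lower bound, 500 genes rose at least 16-fold and 52 fell at least 16-fold, and the medians became 1.99 for raised and -1.33 for lowered genes. For 96.2% of the raised genes (3421), all 3 stress libraries lay above all 3 controls, and for 92.3% of the lowered genes (3126) all lay below. Over all genes tested the stress libraries lay wholly above in 23.1% and wholly below in 25.5%. In bulk leaves, fewer cells of a type and less RNA per cell cannot be told apart.

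**Figure D1:**
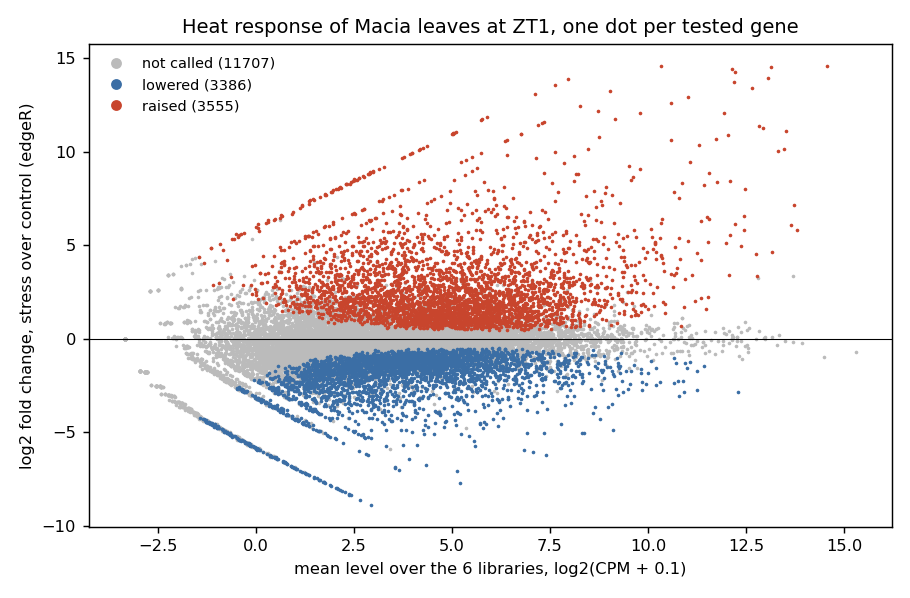
Log2 fold change of each tested gene after 1 h at 42 °C (y axis, edgeR, stress over control) against its mean level over the 6 Macia ZT1 libraries (x axis, log2 of CPM + 0.1), coloured by call. The 3555 raised genes lie above 0 and the 3386 lowered genes below it, and the slanted lines of dots are genes at or near 0 counts in all libraries of a group, whose fitted fold depends on the prior count.

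The split into raised and lowered genes depends on the scaling. With RLE size factors 3388 genes rose and 3839 fell. With library totals alone, which shift the median of all genes by -0.74 on the log2 scale, 2082 rose and 7618 fell. Which direction had the larger changes turned too: with library totals the 3555 raised genes had a median log2 fold change of 1.39 and the 3386 lowered genes of -2.42, with 1299 and 2427 of them changed at least 4-fold. A scaling shifts all genes of a library alike, so the 2082 genes raised under all 3 scalings are no independent check of the calls. When each of the 6 libraries was left out in turn, 2412 raised genes (67.8%) and 1885 lowered genes (55.7%) were called in every fit.

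With only replicates 1 and 2 of every group in the fit, 2557 genes rose and 2526 fell. Replicate 3, which had no part in those calls, could then be read on its own. Stress replicate 3 was above control replicate 3 for 99.3% of the 2557 raised genes (2538), and at least 2-fold above for 2238 of them. It was below for 94.3% of the 2526 lowered genes (2383), and at least 2-fold below for 1648 of them. Over the 18421 genes of that fit it was above for 45.5% and below for 52.8%.

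Among called genes that reached 10 CPM and whose groups did not overlap, the gene with the highest fitted rise was Sobic.001G438000. It also held the highest mean share of counts in heated leaves, though Sobic.004G303500 held more in stress replicate 1 (2.89%). The level of Sobic.001G438000 was 2.53, 1.501 and 1.76 CPM in the 3 controls, from 9, 6 and 10 counts. In the 3 stress libraries it was 41605, 60440 and 41754 CPM. It thus went from a trace to 2.21, 2.80 and 2.26% of all counts of the stress libraries. Its log2 fold change was 14.59 with a standard error of 1.44 (adjusted p = 4.32e-10, edgeR). In TMM-scaled CPM, stress levels were lower at the other times in Macia, at 9295 ± 4047 CPM for ZT6, 10966 ± 4290 CPM for ZT9 and 10920 ± 6385 CPM for ZT15 (SD, n = 3). No stress library of those times reached the lowest at ZT1 in this scaling. The mean TMM factor of the Macia stress libraries was 0.513 at ZT1 and 0.933, 1.204 and 1.306 at ZT6, ZT9 and ZT15. A low factor raises CPM, so the gap depends on the scaling. ZT15 stress replicate 3 held 63438 counts of the gene, in a group with library totals of 2381907 to 4502916. ZT1 stress replicate 1 held 41317 of 1868493 counts. The separation may therefore not hold in shares of counts, whose order was not tested. The fitted response was larger at ZT1 than at ZT15 by 4.42 on the log2 scale (SE 1.29, adjusted p = 0.0258, edgeR), where control replicate 3 stood at 24.4 CPM against 2.25 and 1.42 CPM in the others. The differences from ZT6 (3.20, SE 1.31, adjusted p = 0.108) and ZT9 (1.83, SE 1.35, adjusted p = 0.46) did not pass the test. In RTX430 at ZT1 the gene reached 32054 ± 5437 CPM, and the difference of the responses, larger in Macia by 1.00 on the log2 scale (SE 1.33), did not pass the test (adjusted p = 0.834, edgeR).

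Sobic.004G092800, next by the fitted value, which for a gene at the floor depends on the prior count and is no rank of size, had 0, 0 and 1 counts in the controls. In the stress libraries it stood at 2068, 3120 and 2551 CPM. Set against the floor of 3 counts per library, it was at least 2450-fold higher after heat (adjusted p = 2.09e-09, edgeR). Heated Macia leaves held less of it at other times, with 75.7 ± 53.9 CPM at ZT6, 216 ± 126 CPM at ZT9 and 256 ± 202 CPM at ZT15 (SD, n = 3). All 3 stress libraries of ZT1 lay above all 9 of the other times. The response itself could not be told apart from that at the other times (adjusted p of 0.232 to 0.682, edgeR), with the controls at or near 0 at each of them. RTX430 at ZT1 reached 2431 ± 397 CPM.

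Of the lowered genes, Sobic.001G235500 and Sobic.006G150800 had the lowest fitted values under the same limits. With 0 counts after heat these values depend on the prior count, so they do not show the largest falls. Sobic.001G235500 stood at 19.4, 15.01 and 10.9 CPM in the controls, from 69, 60 and 62 counts, and at 0 counts in every stress library. Against the floor it was at least 3.61-fold lower (adjusted p = 6.16e-06, edgeR), a bound set by the smallest stress library. At other times the transcript was not lost after heat. Macia stress leaves held 5.36 ± 1.75 CPM at ZT6, 7.40 ± 0.634 CPM at ZT9 and 3.76 ± 3.47 CPM at ZT15 (SD, n = 3), against 13.4 ± 8.58, 24.2 ± 13.5 and 4.27 ± 2.06 CPM in the controls. The response at ZT1 was more negative than at each of these times (adjusted p = 0.00498, 0.00875 and 0.000805, edgeR). RTX430 stress leaves at ZT1 were also nearly empty of it, with 1, 0 and 1 counts.

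Sobic.006G150800 was a transcript of control leaves at ZT1. It stood at 12.4, 5.25 and 19.7 CPM in the controls and at 0 counts in every stress library, at least 1.74-fold lower against the floor (adjusted p = 0.000696, edgeR). In Macia at ZT6, ZT9 and ZT15 it stood at 0 to 1.00 CPM in the libraries of both groups, so a loss by heat was measurable only at ZT1. The same gene was at 14.05, 17.5 and 38.1 CPM in RTX430 controls at ZT1 and at 0 in the 3 stress libraries there.

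The most abundant transcripts changed with heat. It took 143, 315 and 226 genes to hold 50% of the counts in the controls, and 116, 121 and 150 genes in the stress libraries. Of the 100 most abundant genes of each group, 44 were shared, and of the 10 most abundant, 1. The shared gene, Sobic.009G132900, led the controls with 4.41, 3.51 and 4.54% of the counts and held 1.70, 1.48 and 1.48% after heat, a log2 fold change of -0.72 with TMM that did not pass the test (adjusted p = 0.243, edgeR).

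Of the 20 most abundant genes of the stress libraries, 14 were called raised, 0 lowered and 6 not called. Since the list was taken from the stress libraries, a rise of its members was part of how they were chosen. Among the 6 were Sobic.004G303500, with 2.89, 0.826 and 0.00919% of the counts in stress replicates 1 to 3, and Sobic.009G082800, with 1.51, 0.484 and 0.00571%. Both belong to the 37 genes that were low in replicate 3, and in the controls they held 0.209, 0.397 and 0.0119% and 0.127, 0.232 and 0.00654%. The 3 genes just described were singled out after their values were seen. Their log2 fold changes, 3.37 for Sobic.004G303500 (adjusted p = 0.321) and 3.23 for Sobic.009G082800 (adjusted p = 0.331, edgeR), did not pass the test.

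A count of genes raised in the same libraries that chose them says little, so gene sets were chosen in the RTX430 libraries of ZT1 and read in Macia, which shares no library with them. RTX430 at ZT1 raised 3657 genes (19.6%) and lowered 2985 (16%) by the same test, 35.6% of all genes together. The 3657 genes held 9.12, 11.8 and 10.7% of the counts in the Macia controls and 48.2, 59.9 and 52.96% after heat. The 766 genes raised at least 16-fold in RTX430 went from 0.807, 1.39 and 0.897% to 31.03, 39.9 and 32.6%. The 2985 lowered genes fell from 18.8, 20.6 and 21.5% to 4.79, 3.74 and 4.95%, and the 12006 genes not called in RTX430 from 71.9, 67.3 and 67.6% to 46.8, 36.2 and 42.0%. In each of these sets the 3 stress libraries lay apart from the 3 controls. With 3 libraries against 3, an exact permutation test of such a share cannot go below p = 0.1, which is the two-sided value for the 766 genes.

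Without the RTX430 stress library that carries ZT2 in part of its labels, 790 genes were raised at least 16-fold, and they held 0.873, 1.49 and 0.972% of the Macia control counts and 31.5, 40.5 and 33.2% of the stress counts.

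**Figure D2:**
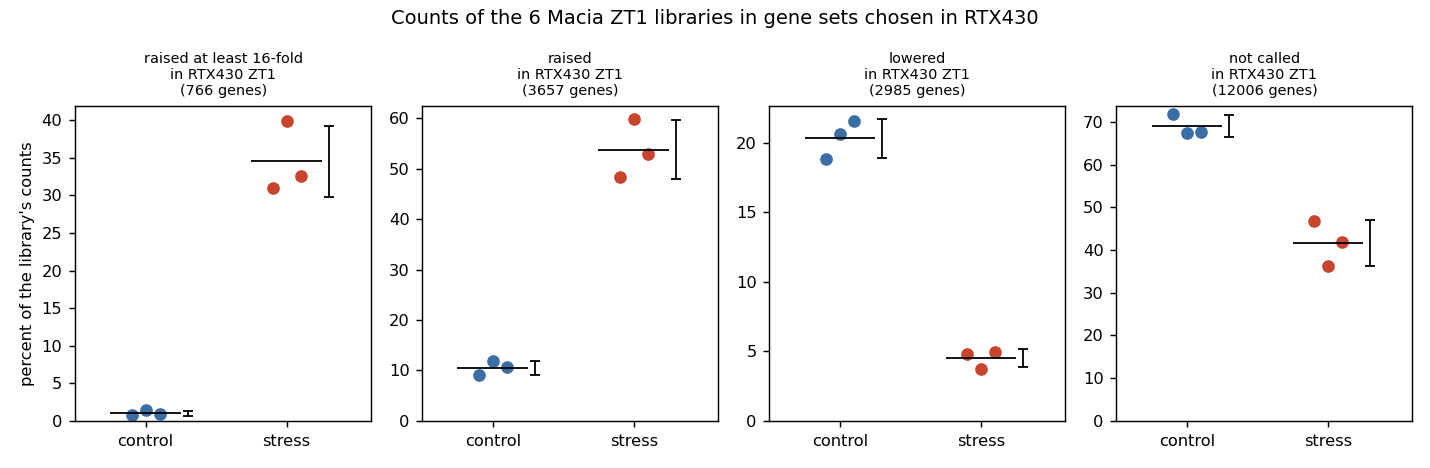
Percent of each Macia ZT1 library's counts (y axis, from 0) in gene sets chosen in RTX430 at ZT1, with controls in blue and stress in red, 3 libraries each, a line at the mean and a bar for the SD. The 766 genes raised at least 16-fold in RTX430 rise from 0.807 to 1.39% in controls to 31.03 to 39.9% after heat.

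Single genes followed the same lines. Of the 3657 genes raised in RTX430 at ZT1, 2708 (74.05%) rose in Macia and 11 fell, beside 19.1% and 18.2% of all genes. Their median log2 fold change in Macia was 1.75, or 1.65 with genes at the floor set to their bound. Of the 2985 genes lowered in RTX430, 1798 (60.2%) fell and 15 rose, with a median of -1.40, or -1.14 with the bounds. The overlap made up 76.2% of the Macia rises and 53.1% of the Macia falls. Of the 12006 genes not called in RTX430, 832 (6.93%) rose and 1577 (13.1%) fell. Of the 100 most abundant genes of RTX430 stress leaves at ZT1, 72 rose in Macia and 0 fell, with a median log2 fold change of 4.72. Of the 100 most abundant of RTX430 control leaves, 1 rose and 18 fell, with a median of -0.22. With library totals as the scaling, the latter counts were 1 and 35. The counts of the larger sets turned with the scaling too. With library totals, 1806 of the 3657 genes rose in Macia and 109 fell. Of the 2985 genes 3 rose and 2591 fell, and of the 12006 genes 273 rose and 4918 fell. Over all genes tested, 2082 rose and 7618 fell in that scaling.

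The test of the difference between the lines called few genes. The response of 122 genes (0.654%) differed between Macia and RTX430 at ZT1. The log2 fold change was larger in Macia for 54 (0.29%) and smaller, which includes stronger falls, for 68 (0.365%). At an unadjusted p under 0.05 there were 1964. Of the 54, 47 were raised in Macia. Of the 68, 28 were lowered in Macia, and 40 were raised in RTX430 with no fall called in Macia. Among the 68, 9 were raised in Macia. Over all genes, 19.1% rose and 18.2% fell in Macia, and 19.6% rose in RTX430. The test that chose these genes uses the same libraries, so the overlap with the calls is part of the choice. The count of 122 rests on all libraries. It was 12 with only replicates 1 and 2, and 71 with library totals alone (37 larger and 34 smaller in Macia). It was 47 when only the 12 libraries of ZT1 were fitted, and 51 without Macia control replicate 3. A p that misses the threshold does not show that the lines respond alike, and across genes the fitted log2 fold changes of the lines correlated with r of 0.766, given as a description.

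The response at ZT1 was set against those of Macia at ZT6, ZT9 and ZT15, which have controls of their own. By the same test the response at ZT6 comprised 964 genes (5.17%), with 3.52% of all genes raised and 1.65% lowered. That at ZT9 comprised 2252 genes (12.1%), with 7.65% raised and 4.43% lowered. That at ZT15 comprised 3628 genes (19.5%), with 10.7% raised and 8.74% lowered. Most of what rose at those times also rose at ZT1, but not the reverse. The 606 genes raised at both ZT1 and ZT6 were 92.4% of the ZT6 rises and 17.05% of those of ZT1. For ZT9 the 1158 shared genes were 81.2% and 32.6%, and for ZT15 the 1556 shared genes were 77.8% and 43.8%. Falls were shared less: 190 with ZT6 (61.7% of its falls and 5.61% of those of ZT1), 483 with ZT9 (58.5% and 14.3%) and 859 with ZT15 (52.7% and 25.4%).

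Opposite calls were few. Of the genes raised at ZT1, the tests of ZT6, ZT9 and ZT15 called 9, 23 and 43 lowered. Of the genes lowered at ZT1, they called 4, 18 and 21 raised. Of the 3555 genes raised at ZT1, 505 rose at all 3 other times and 1760 (49.5%) were called raised at none. Of the 3386 lowered, 108 fell at all 3 and 2328 (68.8%) at none. A missed call at another time is not a difference, so the difference itself was tested.

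Relative to ZT6, the response at ZT1 differed for 2164 genes (11.6%), with the larger value at ZT1 for 1395 (7.48%) and the smaller for 769 (4.12%). Relative to ZT9 it differed for 1790 (9.6%), of which 1166 (6.25%) were larger and 624 (3.35%) smaller. Relative to ZT15 it differed for 1632 (8.75%), of which 1020 (5.47%) were larger and 612 (3.28%) smaller. Most of these genes were also called at ZT1, an overlap favoured by the choice, since both tests use the same ZT1 libraries. Among the larger values 1353, 1106 and 912 genes were raised at ZT1, beside 19.1% of all genes. Among the smaller ones 726, 560 and 446 were lowered, beside 18.2% of all genes. The split turned with the scaling. With library totals alone the larger values numbered 550, 486 and 498 and the smaller 3445, 2033 and 1327, with the median of all genes shifted to -0.80, -0.70 and -0.52 on the log2 scale. With only replicates 1 and 2 the differences numbered 820, 702 and 704, with 560, 430 and 441 larger at ZT1.

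The response of some genes at ZT1 differed from that at every other time. For 583 raised genes the response at ZT1 was larger than at each of ZT6, ZT9 and ZT15 by the test of the difference, with TMM and all replicates. The set would be smaller under other settings. Only 486 genes were larger than at ZT9 with library totals, and 430 with only replicates 1 and 2. The median log2 fold change of the 583 was 2.87 at ZT1 and 0.25, 0.32 and 0.49 at ZT6, ZT9 and ZT15, a contrast that the choice of these genes fixes. In RTX430 at ZT1, which had no part in the choice, 475 of the 583 (81.5%) were raised, beside 76.2% of all genes raised in Macia at ZT1, with a median of 2.38, or 2.20 with genes at the floor at their bound. For 237 lowered genes the response was more negative at ZT1 than at each other time, with a median of -2.04 at ZT1 and -0.11, -0.16 and -0.19 at the others. Of these, 160 (67.5%) were lowered in RTX430 at ZT1, beside 53.1% of all genes lowered in Macia at ZT1, with a median of -1.31, or -1.11 with the bounds.

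The strongest heat genes of ZT1 could be followed through the day. The 766 genes raised at least 16-fold in RTX430 at ZT1 held 34.5 ± 4.75% of the counts in Macia stress leaves at ZT1 (SD, n = 3). They held 5.12, 11.1 and 13.8% in the stress replicates of ZT6, 21.5, 11.8 and 20.1% at ZT9, and 18.4, 10.1 and 29.9% at ZT15. No Macia library of another time reached the lowest of ZT1, 31.03%, although the highest of ZT15 came near it. In Macia controls the genes held 0.795 to 1.99% at all 4 times. The set was chosen by the response at ZT1, which favours ZT1 over the other times in both lines, so these shares describe the ZT1 genes and do not rank the times. In RTX430 stress leaves at ZT15 they held 32.1, 33.2 and 27.4%.

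**Figure D3:**
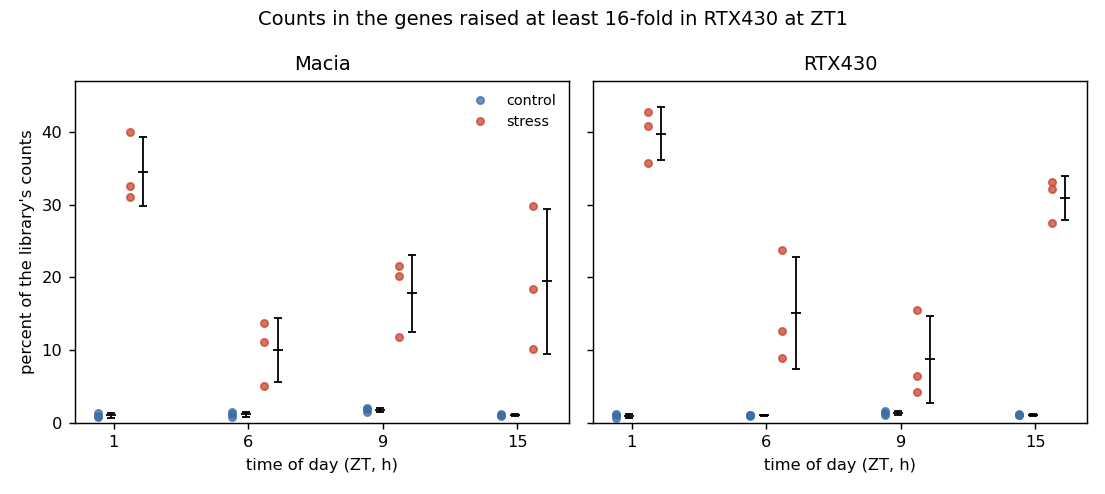
Percent of each library's counts (y axis, from 0) in the 766 genes raised at least 16-fold in RTX430 at ZT1, by time of day (x axis, ZT in hours), with controls in blue and stress in red, 3 libraries each, and mean and SD in black. In Macia the stress libraries of ZT1 hold 31.03 to 39.9% and those of the other times 5.12 to 29.9%, but the genes were chosen by the response at ZT1, in the RTX430 libraries of that time, which favours ZT1.

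The response at ZT1 was also read by the time of day at which genes are normally high. Classes were drawn from the 12 RTX430 controls, which share no library with Macia: genes that differed between times there (adjusted p under 0.05, edgeR), sorted by the time of their highest mean. Of 3028 genes highest at ZT1, when these leaves were heated, 27.9% fell and 18.2% rose, beside 18.2% and 19.1% of all genes, with a median log2 fold change of -0.42. Of 1606 genes highest at ZT6, the next time sampled, 31.4% rose and 12.8% fell, with a median of 0.24. Of 1836 genes highest at ZT9, 19.01% rose and 16.2% fell, with a median of -0.14.

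Of 2437 genes highest at ZT15, 11.8% rose and 23.7% fell, with a median of -0.54. With genes at the floor at their bound, the medians of the 4 classes became -0.29, 0.21, 0 and -0.09, where all genes have a median of 0. The 9741 genes with no called difference between times rose in 19.1% and fell in 14.98%. In RTX430 ZT15 control replicate 1, 55.9% of the counts in the genotype-specific genes above fell in the Macia genes, against 0.0959 to 2.54% in the other 23 RTX430 libraries. Without it, the classes of ZT1, ZT6, ZT9 and ZT15 rose in 17.98, 32.1, 18.9 and 10.1% and fell in 28.5, 12.7, 15.8 and 26.3%. With library totals alone the median of the ZT6 class became -0.45, against -0.93 for all genes, so its position above the rest stayed while its sign turned. Leaving out 1 library moved the ZT6 median from 0.24 to 0.073 without stress replicate 3, 0.074 without stress replicate 2 and 0.15 without control replicate 2. It moved the ZT9 median from -0.14 to -0.32, -0.25 and -0.04 without stress replicate 3, stress replicate 2 and control replicate 3.

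The shares were not the same in the genes that vary most over the day. Among genes with at least an 8-fold range over times, the 643 highest at ZT1 rose in 13.2% and fell in 33.4%, with a median of -0.96. The 169 highest at ZT6 rose in 21.9% and fell in 18.3%, with a median of -0.05, near the shares of all genes. The 325 highest at ZT9 rose in 19.4% and fell in 10.8%, and the 167 highest at ZT15 rose in 11.98% and fell in 12.6%, so the larger share of falls in the whole ZT15 class was not seen in them. These shares are descriptions, and no test was made of them.

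**Figure D4:**
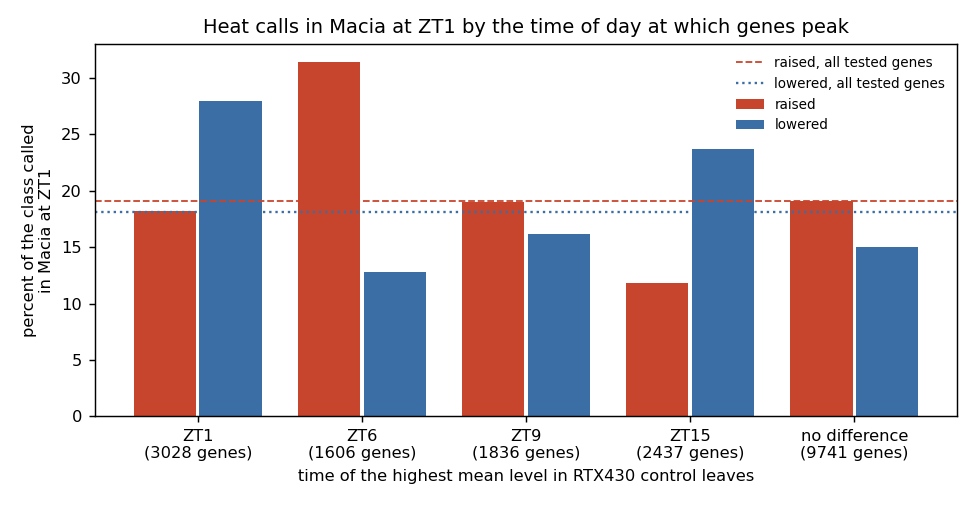
Percent of each class of genes called raised (red bars) or lowered (blue bars) by heat in Macia at ZT1, y axis from 0, by the time of the highest mean level in RTX430 control leaves (x axis), with the shares over all 18648 tested genes as dashed and dotted lines. The class that peaks at ZT6 is raised in 31.4% and the class that peaks at ZT1 is lowered in 27.9%.

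Genes with strong rises often sat next to each other. In the order of the identifiers, whose first number is the chromosome, 149 of the 681 genes on numbered chromosomes that rose at least 16-fold (21.9%) had another such gene as a direct neighbour among those tested, while 7.07% of all tested genes lay beside one. The longest run held 5 genes, and 14 runs held 3 or more. A run of 4 on chromosome 3 held 0.000628, 0.00206 and 0.000706% of the counts in the controls and 2.08, 2.77 and 2.12% after heat, with log2 fold changes between 9.96 and 13.73. Neighbours can be near-identical copies whose reads the counting may have split, and how such reads were treated is not given in the sources used here. Of 293 genes lowered at least 16-fold, 33 (11.3%) had such a neighbour, beside 3.10% of all tested genes. By chromosome, the raised share ran from 15.4% on chromosome 5 to 21.5% on chromosome 7 and the lowered share from 15.3% on chromosome 5 to 20.0% on chromosome 4.

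Some called genes were at the limit of detection in a group. Of the 1103 tested genes at or under 3 counts in every control, 332 were raised. For 240, 104 and 25 of these 332 the lower bound on the rise was at least 2-fold, 10-fold and 100-fold. Of the 2584 tested genes at or under 3 counts in every stress library, 622 were lowered. The bound on the fall was at least 2-fold for 39 of these 622 and at least 10-fold for 1. The bounds on falls are low because 3 counts in stress replicate 1 equal 3.02 CPM, against 0.528 to 0.844 CPM in the controls, so how far these transcripts fell was not measurable at this depth. The floors and bounds cover counting error only, and reads without molecular identifiers can be PCR copies of 1 molecule.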

How the data were processed

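PolyA RNA from leaves was sequenced as single-end reads of 75 nt, per the labels' protocols. The authors deposited raw counts for 34129 genes in 96 libraries. The submitters' processing notes name HISAT2, an aligner, and DESeq2, with no version. The build, annotation, counter, strand setting and handling of multiply matching reads are not given in the sources used here, so near-identical or overlapping genes are uncertain.

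The 48 heat libraries, 16 groups of 3, were fitted together on the deposited counts with edgeR 4.0.16 in R 4.3.3 (filterByExpr by group with minimum count 10 and minimum total count 15, TMM, glmQLFit, glmQLFTest). The 18648 genes tested held 99.76 to 99.88% of the counts of the 6 libraries. The common biological coefficient of variation was 0.394. Genes were called at a Benjamini-Hochberg adjusted p under 0.05. Fold changes, tests and differences of response came from contrasts of this fit, and tables and figures from Python 3.11.15, pandas 2.3.3 and matplotlib 3.10.9. The functions were tested on simulated counts. No pair of the 6 libraries looked like copies (chi-square per degree of freedom at least 20.8). The sample labels give ZT1 where the treatment text gives ZT0.

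The gene sets, classes and comparisons were chosen with earlier results of these data known. Named genes are those with the 2 highest and 2 lowest fitted fold changes among called genes whose stress and control libraries do not overlap and whose mean reaches 10 CPM in the higher group. This limit applies because 0 of 34129 identifiers matched the gene table at hand (RefSeq, Sorghum_bicolor_NCBIv3). Lists of heat shock, photosynthesis and leaf cell type genes drawn up by product name could not be filled for the same reason. The alternatives were RLE factors, library totals, DESeq2 1.42.0, no filter, the libraries concerned alone, a block for the replicate number, and fits that each lacked 1 library. Fits with only replicates 1 and 2, without the library labelled ZT2 and without RTX430 ZT15 control replicate 1 were added after seeing the data.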

Additional observations from a re-analysis of the deposited data

Results flagged for a closer look

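The heat response of Macia at ZT1 differed from that of another group by the test of the difference itself for 122 genes against RTX430 at ZT1, 2164 genes against Macia at ZT6, 1790 against ZT9 and 1632 against ZT15 (edgeR, adjusted p under 0.05).

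Among the named genes, Sobic.001G438000 responded more at ZT1 than at ZT15 by 4.42 on the log2 scale (adjusted p = 0.0258, edgeR). In TMM-scaled CPM its stress libraries were higher at ZT1 than at ZT15 in all 3 against all 3. The gap depends on the scaling, with mean TMM factors of 0.513 for the ZT1 and 1.306 for the ZT15 stress libraries. ZT15 stress replicate 3 held 63438 counts of the gene, in a group with library totals of 2381907 to 4502916. The order in shares of counts was not tested, so the separation is shown for TMM-scaled CPM only. Sobic.001G235500 responded with a more negative value at ZT1 than at ZT6 (-7.52, adjusted p = 0.00498), ZT9 (-7.20, adjusted p = 0.00875) and ZT15 (-8.77, adjusted p = 0.000805, edgeR). All 3 ZT1 stress libraries had 0 counts of it, so these fitted log2 differences depend on the prior count and set no bound, while the 9 stress libraries of the other times held 4 to 63 counts each.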

How the results depend on the processing

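The count of called genes in the heat response at ZT1 stayed within 1.5 times of 6941 under each alternative run, from 5083 with only replicates 1 and 2 to 9700 with library totals alone. Raised genes numbered 2082 and lowered genes 7618 with library totals alone. The difference from RTX430 at ZT1, 122 genes, was 71 with library totals alone, 47 with only the libraries concerned, 77 with the replicate block and 12 with only replicates 1 and 2. The difference from ZT6, 2164 genes, was 3995 with library totals alone and 820 with only replicates 1 and 2. The difference from ZT9, 1790 genes, was 702 with only replicates 1 and 2. The difference from ZT15, 1632 genes, was 965 with only the libraries concerned and 704 with only replicates 1 and 2. The fits with only replicates 1 and 2 and with only the libraries concerned also hold fewer libraries. Causes of the changed counts were not tested. Leaving out 1 library in turn gave 5734 (without stress replicate 2) to 6392 genes for the response, 2659 to 3439 raised and 2550 to 3229 lowered. It gave 51 to 118 for the difference from RTX430 (51 without Macia control replicate 3, 55 without RTX430 control replicate 1, 59 without RTX430 stress replicate 3, 73 without Macia stress replicate 3 and 76 without Macia stress replicate 1), 1457 to 2075 for ZT6, 1306 to 1554 for ZT9 and 1120 to 1641 for ZT15.

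The median log2 fold change of the class highest at ZT6 turned from 0.24 to -0.45 with library totals alone, and that of the class highest at ZT9 from -0.14 to 0.0032 with only the libraries concerned. The 4 named genes kept direction and call under every alternative run. DESeq2 called 7164 genes for the response. Same-numbered control and stress libraries deviated together with correlations of 0.113, 0.060 and 0.107, not all over 0.1, so the numbers were not treated as pairs. Each library correlated best with its own number, a hint from the data only. With the replicate block the response comprised 6208 genes, and the differences from ZT6, ZT9 and ZT15 1656, 1320 and 1165. Alternatives for the product lists were not run, because the lists could not be filled. Depth limits falls most: 3 counts in stress replicate 1 equal 3.02 CPM.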
